A study of Mus musculus with 4 samples.

Results

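The 10 genes described here are components and targets of the NF-kappaB pathway: the inhibitors Nfkbia and Tnfaip3, the Rel subunits Nfkb1, Nfkb2 and Relb, the survival factor Birc3, the adhesion molecule Icam1, the chemokines Ccl2 and Cxcl1, and the ribonuclease Zc3h12a. Their probes were chosen by name, as every non-control probe whose RefSeq accession belongs to 1 of these genes. This gave 13 probes of the 56605 on the array, with 2 probes each for Nfkb2, Relb and Icam1 and 1 for each of the other genes. No cutoff on a measured value entered the choice, but the genes were listed when results of these arrays were known, so their values are given as a description and no p-value is attached to a single one of them. B16-F10 mouse melanoma cells, grown in medium with 10% fetal bovine serum, were kept for 24 h with recombinant Cdh1 at 100 ng/mL (Cdh1 cultures) or without it (control cultures). Each condition was measured on 2 one-colour arrays, in 2 culture sets that the design text calls independent, each with 1 control and 1 Cdh1 culture. All 4 cultures were of this 1 line. The labels do not give the source of the recombinant protein.

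NF-kappaB transcription factors are dimers of Rel proteins that are held in the cytoplasm by IkappaB proteins. Signals from tumour necrosis factor, interleukin-1 or Toll-like receptors activate a kinase complex that marks IkappaB for destruction, and the released dimers bind kappaB sites and switch on chemokine, adhesion and survival genes. They also switch on their own brakes, among them Nfkbia and Tnfaip3, so these transcripts are often read as a gauge of pathway activity. A second branch processes the Nfkb2 product into a partner of Relb. Melanoma cells are known for steady NF-kappaB activity, and the Cxcl1 protein was described as a melanoma growth stimulatory activity.

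The stretches just upstream of 4 of the genes are shown, picked by their signals in the culture sets (below) and for a match to a kappaB motif. The signals of Nfkbia, Nfkb2 and Cxcl1 did not overlap between the sets, as for 66.5% of all tested probes. For Icam1, the probe in row 139 was well above background in set 1 alone. RefSeq promoter windows (assembly GRCm38.p6) were matched by symbol for 7 of the 10 genes, in 10 windows, and the 250 bases before each annotated start were searched on both strands. A loose motif, GGG and CC with any 5 bases between them, was found in all 10 windows, as in 45.8% of 32851 windows of the same length over all genes. A stricter motif, GGG and TTCC with any 3 bases between them, was found in 7 windows, of 4 genes (Nfkbia, Tnfaip3, Nfkb2 and Cxcl1), and in 4.65% of all windows. Every match to the stricter motif is also a match to the loose one, and matches on opposite strands can overlap. A match is a run of letters and not a measured binding site. Capitals mark matches to the stricter motif on either strand, or, for Icam1, which held none, the match to the loose one. Both motifs demand GGG, so a site that departs from this is not marked. In Icam1 the run ggaaattcct departs from the stricter motif, read on the other strand, only at its last base as written. The capitals there do not single out the likeliest site. Sequences are written 5′ to 3′ toward the start of the gene, which follows the last base. For Nfkb2 the window of the most upstream of 3 annotated starts is shown.
Nfkbia (chr12:55492648-55492897, minus strand): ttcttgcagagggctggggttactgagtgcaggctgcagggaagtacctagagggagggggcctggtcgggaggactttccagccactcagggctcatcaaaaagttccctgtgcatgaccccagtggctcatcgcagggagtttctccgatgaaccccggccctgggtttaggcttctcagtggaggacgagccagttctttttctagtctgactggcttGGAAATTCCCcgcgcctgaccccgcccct
Nfkb2 (chr19:46304487-46304736, plus strand): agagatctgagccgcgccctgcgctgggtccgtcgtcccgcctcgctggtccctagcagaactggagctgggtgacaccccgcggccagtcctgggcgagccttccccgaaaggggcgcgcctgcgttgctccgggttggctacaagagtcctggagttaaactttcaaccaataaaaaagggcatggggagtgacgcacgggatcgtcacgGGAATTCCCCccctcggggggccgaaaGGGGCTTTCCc
Cxcl1 (chr5:90890995-90891244, plus strand): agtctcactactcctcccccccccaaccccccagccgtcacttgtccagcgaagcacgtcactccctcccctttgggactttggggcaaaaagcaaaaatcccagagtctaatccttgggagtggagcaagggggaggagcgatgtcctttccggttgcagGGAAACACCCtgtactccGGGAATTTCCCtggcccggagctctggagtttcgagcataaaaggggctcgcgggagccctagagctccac
Icam1 (chr9:21015690-21015939, plus strand): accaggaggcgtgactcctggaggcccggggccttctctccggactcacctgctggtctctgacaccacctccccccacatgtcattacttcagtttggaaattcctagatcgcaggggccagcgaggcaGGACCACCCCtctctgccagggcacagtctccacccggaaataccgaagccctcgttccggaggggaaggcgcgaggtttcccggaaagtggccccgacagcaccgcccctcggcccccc
The Nfkbia match ends 20 bases before the start. In Cxcl1, 2 of the 3 stricter matches overlap in the run between bases 71 and 61 before the start. In Nfkb2 the match nearest to the start ends 2 bases before it.

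Signals are given as log2 of the processed intensity relative to the 75th percentile of the array, so that 0 is the level of that percentile. The share of the 59305 non-control spots that was well above background ran from 59.29% to 61.33% over the arrays. The 7 melanocyte markers Pmel, Tyr, Tyrp1, Dct, Mlana, Mitf and Sox10 were well above background on all 4 arrays. Of the leukocyte markers, Ptprc and Adgre1 were well above background on none, as were the epithelial markers Epcam, Krt8 and Krt18, whereas Csf1r, Cd68, Cd14 and Itgam were on all 4. Of the 13 probes, 9 (7 genes) were well above background on all 4 arrays, against 55.0% of all probes. Of the other 4, 1 Icam1 probe was so on 2 arrays and the probes of Birc3 and Ccl2 and the other Icam1 probe on none. Each of the 13 was printed as 1 spot. The 300 probes printed 10 times each show what a single spot is worth: within an array the median SD over the 10 spots was 0.072 at levels from 0 to 2 (5 to 7 probes), 0.155 from -4 to -2 (5 to 9 probes) and 0.246 from -6 to -4 (5 to 9 probes).

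**Figure D1:**
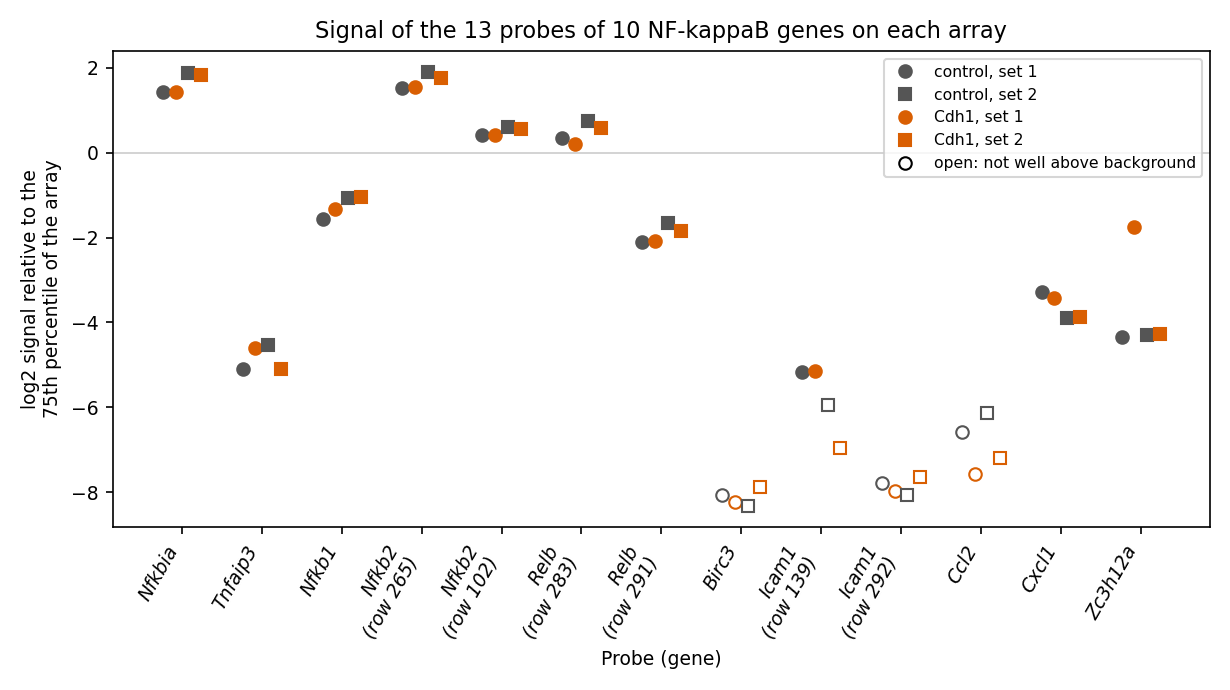
Signal of each of the 13 probes on each array (log2 relative to the 75th percentile of the array). Each mark is 1 array, grey for control and orange for Cdh1, round for set 1 and square for set 2, and open marks are not well above background. Set 2 lies above set 1 for Nfkbia, Nfkb1, Nfkb2 and Relb and below it for Cxcl1, and Zc3h12a is high on 1 array alone.

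Of the 2 inhibitors, Nfkbia was bright and higher in set 2, and Tnfaip3 was dim and went opposite ways with Cdh1 in the sets. Nfkbia, which encodes IkappaB alpha (NM_010907, array row 40), had signals of 1.42 in control and 1.42 in Cdh1 of set 1, and of 1.88 in control and 1.84 in Cdh1 of set 2. The arrays of a set lay close together and both arrays of set 2 lay above both of set 1. Cdh1 minus control was 0.00 in set 1 and -0.05 in set 2, or -0.03 in the mean (SE 0.24 from the fit over all probes). The SE is large because that fit counts the distance between the sets as error. Set 2 minus set 1 was 0.44 with an SE of 0.05, a 1.36-fold higher intensity. An SE between the sets, here and below, takes the control and the Cdh1 array of a set as its replicates. It does not measure how culture sets vary. Tnfaip3, a ubiquitin-editing enzyme that shuts off signalling to the kinase complex (NM_009397, row 22), was dim. It had signals of -5.09 in control and -4.61 in Cdh1 of set 1, and of -4.53 in control and -5.10 in Cdh1 of set 2. Its difference with Cdh1 was 0.48 in set 1 and -0.57 in set 2, opposite in sign, and both the groups and the sets overlapped. Among 3277 probes within 0.5 of its level, 17.1% differed at least as much in set 1.

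The 3 Rel subunit genes had 5 probes, and all were higher in set 2. Nfkb1, whose product is a precursor of a DNA-binding subunit and an inhibitor in itself (NM_008689, row 295), had signals of -1.56 and -1.32 in control and Cdh1 of set 1 and of -1.07 and -1.05 in set 2. Both arrays of set 2 were above both of set 1, by 0.38 in the mean (SE 0.10). Nfkb2, the precursor of the second branch (NM_019408), was measured by a probe in row 265 and one in row 102. The former gave 1.53 in control and 1.55 in Cdh1 of set 1, and 1.89 in control and 1.77 in Cdh1 of set 2. The latter gave 0.42 and 0.40 in set 1 and 0.61 and 0.56 in set 2. The probes had the same direction between the sets, with differences of 0.29 (SE 0.07) and 0.18 (SE 0.05). Relb, the partner in that branch, was also measured by a pair of probes, and they carry different RefSeq accessions. The probe in row 283 (NM_009046) gave 0.34 in control and 0.20 in Cdh1 of set 1, and 0.73 in control and 0.58 in Cdh1 of set 2. The probe in row 291 (NM_001290457) gave -2.10 and -2.08 in set 1 and -1.65 and -1.85 in set 2. Set 2 minus set 1 was 0.39 (SE 0.09) and 0.34 (SE 0.09). With Nfkbia, these made 6 probes whose signals did not overlap between the sets, as was so for 66.5% of all tested probes. Each was higher in set 2 in control and in Cdh1 cultures, by 0.16 to 0.49. Tnfaip3, the other inhibitor, is not among them, and its sets overlapped. Over the same 6 probes, Cdh1 minus control within a set lay between -0.20 and 0.24. The probe of Relb in row 283 was lower with Cdh1 by about the same amount in both sets, -0.14 and -0.16. Of 3010 probes within 0.5 of its level, 5.12% had a mean difference with Cdh1 at least that large. For the probe in row 291 the differences were 0.03 and -0.20, opposite in sign, and the share was 44.9% of 3584 probes.

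The effector genes were dim or not well above background. Cxcl1, a neutrophil-attracting chemokine (NM_008176, row 177), had signals of -3.27 in control and -3.42 in Cdh1 of set 1 and of -3.88 and -3.87 in set 2. It differed from the Rel subunits and Nfkbia in direction, being lower in set 2 by 0.61 in control and by 0.45 in Cdh1 cultures. The mean of set 2 minus set 1 was -0.53 (SE 0.07), and the difference with Cdh1 was -0.15 in set 1 and 0.01 in set 2. With normexp background correction and quantile normalization the difference between the sets was smaller, at -0.18. Icam1, a ligand of leukocyte integrins (NM_010493), was well above background only in set 1 and only with the probe in row 139, at -5.16 in control and -5.15 in Cdh1. In set 2 that probe gave -5.93 in control and -6.95 in Cdh1, neither well above background. The mean of set 1 was at least 1.53-fold above the bound for set 2, which is the higher, per array, of the signal of the probe and the lowest signal well above background. Of all probes, 0.671% were well above background on both arrays of set 1 and neither of set 2. The Icam1 probe in row 292 was not well above background on any array, from -8.07 to -7.64. Ccl2, a monocyte-attracting chemokine (NM_011333, row 268), was not well above background on any array. Its signals were -6.59 in control and -7.56 in Cdh1 of set 1, and -6.14 in control and -7.19 in Cdh1 of set 2. The control values were the higher ones in both sets, but signals not well above background carry no order. Birc3, an inhibitor of apoptosis and ubiquitin ligase of the tumour necrosis factor receptor complex (NM_007464, row 263), gave -8.32 to -7.88, also not well above background on any array.

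Zc3h12a, whose product degrades inflammatory messenger RNAs such as that of Il6 (NM_153159), had its 1 probe in row 383 of 384. Its signals were -4.35 in control and -1.76 in Cdh1 of set 1, and -4.29 in control and -4.27 in Cdh1 of set 2. A single array was high, and the other 3 lay close together. The difference with Cdh1 was therefore 2.59 in set 1, a 6.02-fold higher intensity, and 0.02 in set 2, or 1.31 in the mean (SE 0.90), and 0.57 in the mean with normexp background correction and quantile normalization. In rows 373 to 384, 4.02% of 970 probes well above background on all 4 arrays differed at least 2-fold with Cdh1 in set 1. In rows 1 to 360, 0.178% of 29206 did. The 7 probes within 2 rows and 2 columns of the Zc3h12a spot that were well above background on all 4 arrays had differences in set 1 from -0.10 to 0.53. Within 5 rows and 5 columns there were 40 such probes, of which 3 were at least 2-fold higher in set 1 and none at least 2-fold lower. In set 2, where Zc3h12a differed by 0.02, 3 of the 40 were at least 2-fold apart too, in a range from -0.84 to 3.91. The 3 genes whose pattern over the 4 arrays was nearest to that of Zc3h12a, by Euclidean distance after centring each probe and among 13996 genes, were Dpp10 (distance 0.55), 5430440P10Rik (0.85) and Alpk1 (0.91). Their probes lie in rows 383, 356 and 383, and all 3 were high on the array of Cdh1 in set 1. The part of the array edge in the value of Zc3h12a was not tested. In the plot of the edge rows, the scatter of single probes widens toward the last rows in both sets.

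**Figure D2:**
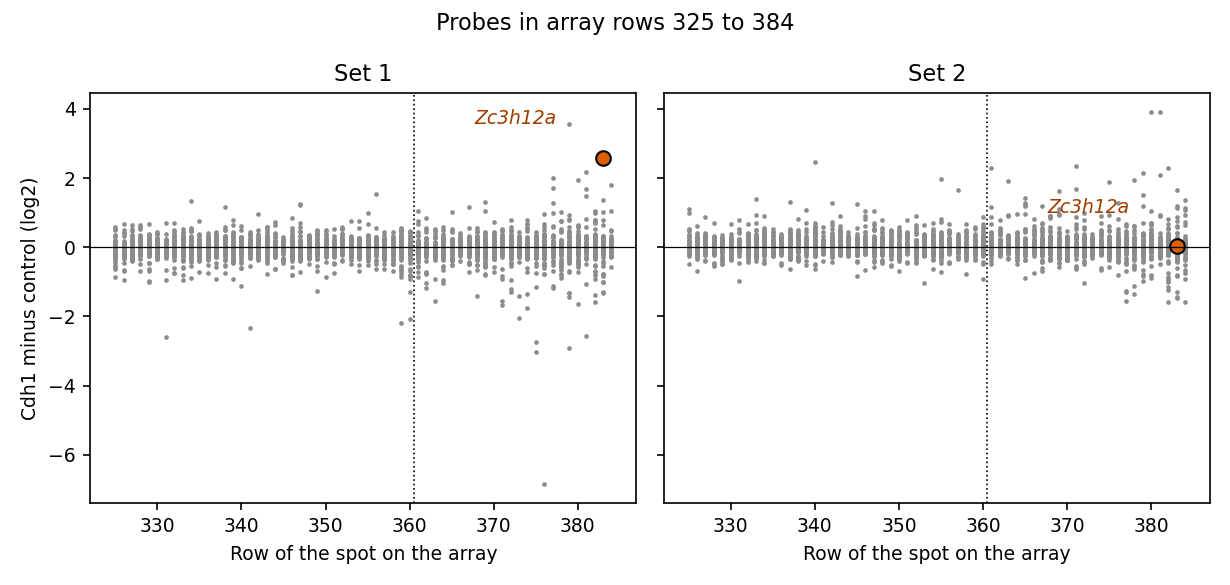
Cdh1 minus control (log2) in array rows 325 to 384, in set 1 (left) and set 2 (right). Each point is 1 probe that was above background on every array, the dotted line marks the start of the last 24 rows, and Zc3h12a is in orange, at 2.59 in set 1 and 0.02 in set 2.

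The study asked which transcripts change with recombinant Cdh1. Across all genes 0 of 32571 probes were called between Cdh1 and control (0.0%, limma with Benjamini-Hochberg adjustment at 0.05), and 1.72% had an unadjusted p under 0.05. With the set as a replicate block 0 were called too, and 7.17% had an unadjusted p under 0.05. None of the 9 tested probes of the 10 genes was called. The 8 of these other than Zc3h12a had differences within a set between -0.57 and 0.48, and both extremes were those of Tnfaip3. The sign was the same in both sets for 5 of the 9 probes, against 52.9% of all tested probes. The groups did not overlap for 1 of the 9, Zc3h12a, against 18.1% of all. The median size of the mean difference was 0.071 over the 9 probes and 0.063 over all tested probes. With 2 arrays a group, an exact two-sided permutation test has 0.333 as its smallest p.

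**Figure D3:**
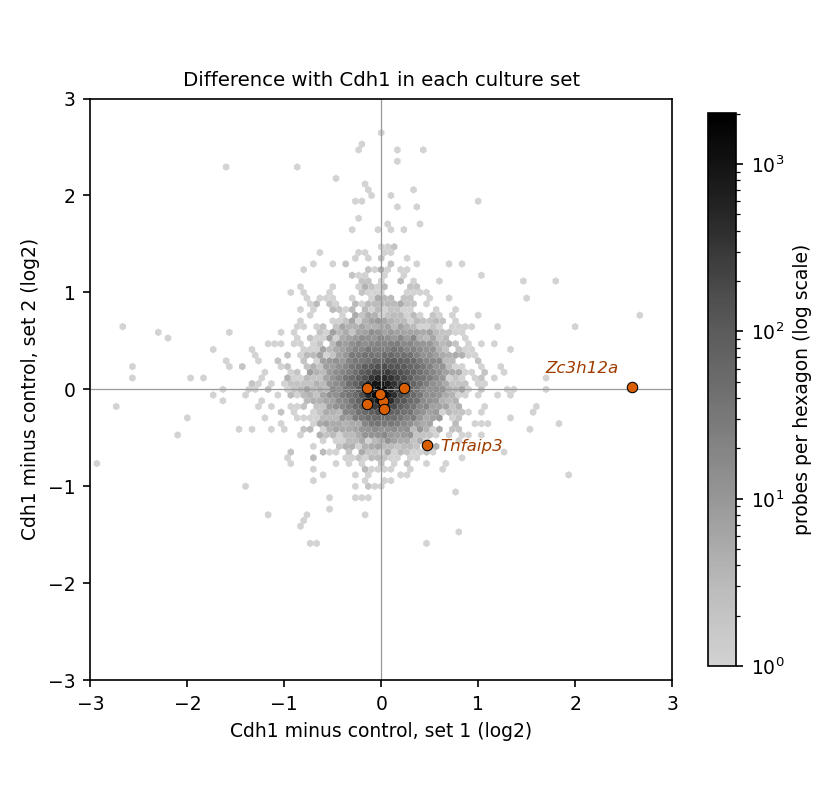
Cdh1 minus control in set 1 (horizontal) against set 2 (vertical), in log2. Grey hexagons count 31155 probes, those well above background on every array, of which 8 lie outside the axes, and orange points are the 9 probes of the described genes. All but Tnfaip3 and Zc3h12a lie near the centre, and Zc3h12a lies at 2.59 in set 1 and 0.02 in set 2.

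Between the culture sets the median size of the difference was 0.38 over the 9 probes and 0.174 over all tested probes. The calls and adjusted p-values between the sets take the control and the Cdh1 array of a set as its replicates. They therefore do not measure how culture sets vary. A set cannot be told apart from anything else that its arrays share. Across all genes 4572 probes were called between the sets (14.0%, limma with Benjamini-Hochberg adjustment), 6.23% higher and 7.8% lower in set 2. Of the 9 tested probes, 1 was called higher, that of Nfkbia, and 1 lower, that of Cxcl1, and nothing is read from these counts. The sets did not overlap for 7 of the 9 probes, against 66.5% of all tested probes. The median of set 2 minus set 1 was 0.29 over the 9 probes and 0.00 over all. With the treatment as a block, which is the replicate block fit, 1597 probes (4.9%) were called, 2.09% higher and 2.81% lower in set 2, and none of the 9 was. With any 1 of the 4 arrays left out, 0 probes were called (limma lowest adjusted p from 0.0697 to 0.0828), with 7813 to 9412 at an unadjusted p under 0.05. Among 2776 probes within 0.5 of the level of Nfkbia, 8.68% differed at least as much between the sets, and for Cxcl1 the share was 15.8% of 3765. In the plot of the sets, the probes of Nfkbia, Nfkb1, Nfkb2 and Relb lie together along the diagonal, and those of Tnfaip3 and Zc3h12a lie off it.

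**Figure D4:**
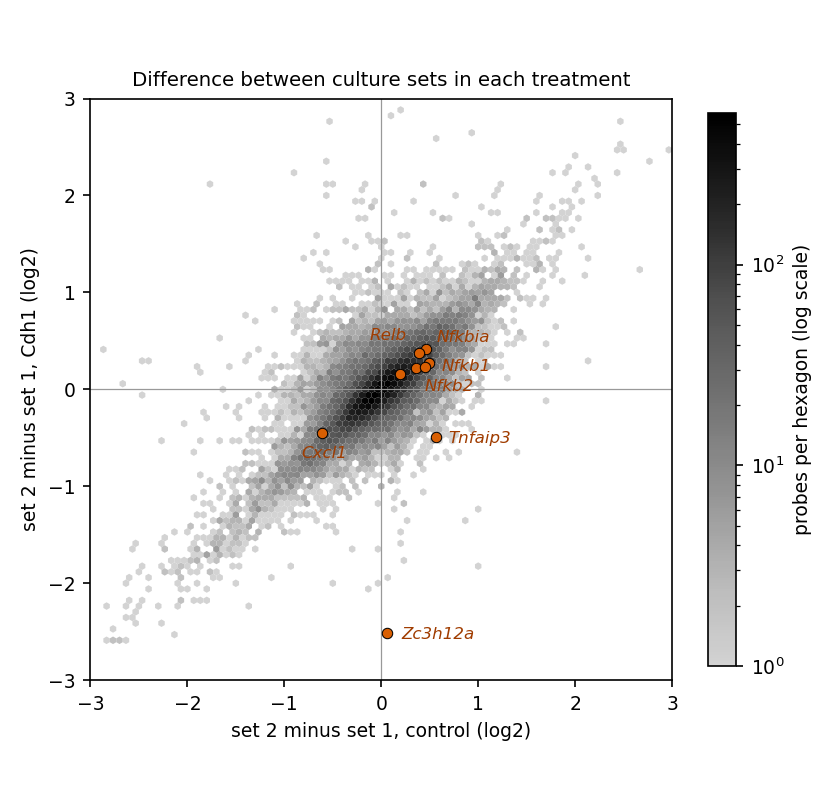
Set 2 minus set 1 in control (horizontal) against Cdh1 cultures (vertical), in log2. Grey hexagons count 31155 probes, those well above background on every array, of which 20 lie outside the axes, and orange points are the 9 probes of the described genes. The 6 probes of Nfkbia, Nfkb1, Nfkb2 and Relb are above 0 on both axes and Cxcl1 is below 0 on both.

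The wider pathway was followed in 83 further genes listed by role with earlier results of these arrays known, each by its brightest tested probe. Of these, 57 were well above background on all 4 arrays, 20 on none and 61 were tested. None of the 61 was called with Cdh1, where the median difference was -0.014, against -0.0041 over all tested probes. Between the sets 17 of 61 were called (27.9%, against 14.0% of all tested probes), 6 higher and 11 lower in set 2, with a median of -0.133. These shares are not alike in kind. The former is over the brightest probe of each listed gene and the latter over every tested probe, dim ones included. No enrichment is read from them. With the replicate block 6 were called, and with any 1 array left out none was.

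Of 7 further Rel and IkappaB genes, 2 were called higher in set 2 and none lower. Of all tested probes, 6.23% were called higher and 7.8% lower. The median of set 2 minus set 1 over these 7 genes was -0.044. Nfkbia, Nfkb1, Nfkb2 and Relb belong to the same family but are not among the 7. Their probes were all higher in set 2 (above), so this median does not describe the whole family. Bcl3, a nuclear IkappaB protein that binds homodimers of the Nfkb1 and Nfkb2 products, had signals of -2.17 and -2.15 in control and Cdh1 of set 1 and of -0.99 and -0.83 in set 2, a 2.39-fold rise (limma adjusted p 0.0102, 0.0422 with the block). Nfkbie, which encodes IkappaB epsilon, rose by 0.57 (limma adjusted p 0.0294, 0.0498 with the block). Rela and Rel, the other Rel subunits, did not pass, at -0.05 (SE 0.06) and -0.10 (SE 0.09). Of 20 tested kinases and adaptors, Traf3, which restrains the second branch, was higher (0.32, limma adjusted p 0.0397). Myd88, the adaptor of Toll-like and interleukin-1 receptors, was lower (-0.48, 0.0224), and so was Ripk1 (-0.28, 0.0465). The kinase subunits Ikbkb and Chuk did not pass, at -0.21 (SE 0.05) and -0.29 (SE 0.06). Of 8 ubiquitin editors 1 was called lower, Tnip1, a partner of the Tnfaip3 product (-0.39, limma adjusted p 0.0344). With the mean of all tested probes of a gene in place of the brightest, Ripk1 (-0.12, limma adjusted p 0.142) and Tnip1 (-0.36, 0.0611) did not pass, Ikbkb was at -0.04, and Chuk passed (-0.33, 0.0335).

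Among the receptors and targets, 3 were called higher and 8 lower in set 2, where 6.23% and 7.8% of all tested probes were. Of 8 tested receptors, 3 were called lower and none higher: Tlr2 (-1.23, limma adjusted p 0.0337), the TWEAK receptor Tnfrsf12a (-0.55, 0.0497) and Tlr4 (-0.33, 0.0378). Of 9 ligands 2 were tested and neither was called, and 7, among them Il1a and Il1b, were well above background on no array. Tnf was, on all 4, and did not pass (-0.13, SE 0.07). Of 16 tested target genes, 3 were called higher and 5 lower. The higher ones were Gadd45b, a stress-response gene (1.11, limma adjusted p 0.0105, 0.0423 with the block), the growth factor gene Csf1 (0.46, 0.0247) and the transcription factor gene Irf1 (0.33, 0.0399). A further Irf1 probe, in row 383, went the other way, at -0.49, and with the mean over probes Irf1 was at -0.08 (limma adjusted p 0.772) and Csf1 at 0.47 (0.0535), neither of which passed. The lower ones were led by the chemokine Ccl5, from 3.72 and 3.65 in control and Cdh1 of set 1 to 2.20 and 2.24 in set 2. This is a fall by 1.46 (limma adjusted p 0.00772, 0.0422 with the block). Cxcl10 (-0.88, limma adjusted p 0.0153, 0.049 with the block) and the caspase inhibitor Cflar (-0.83, 0.0164 and 0.0484) followed. Both of these probes lie in the last 24 rows, in rows 363 and 372. The 3 other Cflar probes, in rows 20, 261 and 359, gave -0.93, -0.60 and -0.82. Tnfaip2 and Lif were lower by smaller amounts, -0.52 and -0.39. All named calls of a brightest probe that are given without a block value in this and the preceding paragraph were lost with the block, where the adjusted p was above 0.05.

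**Figure D5:**
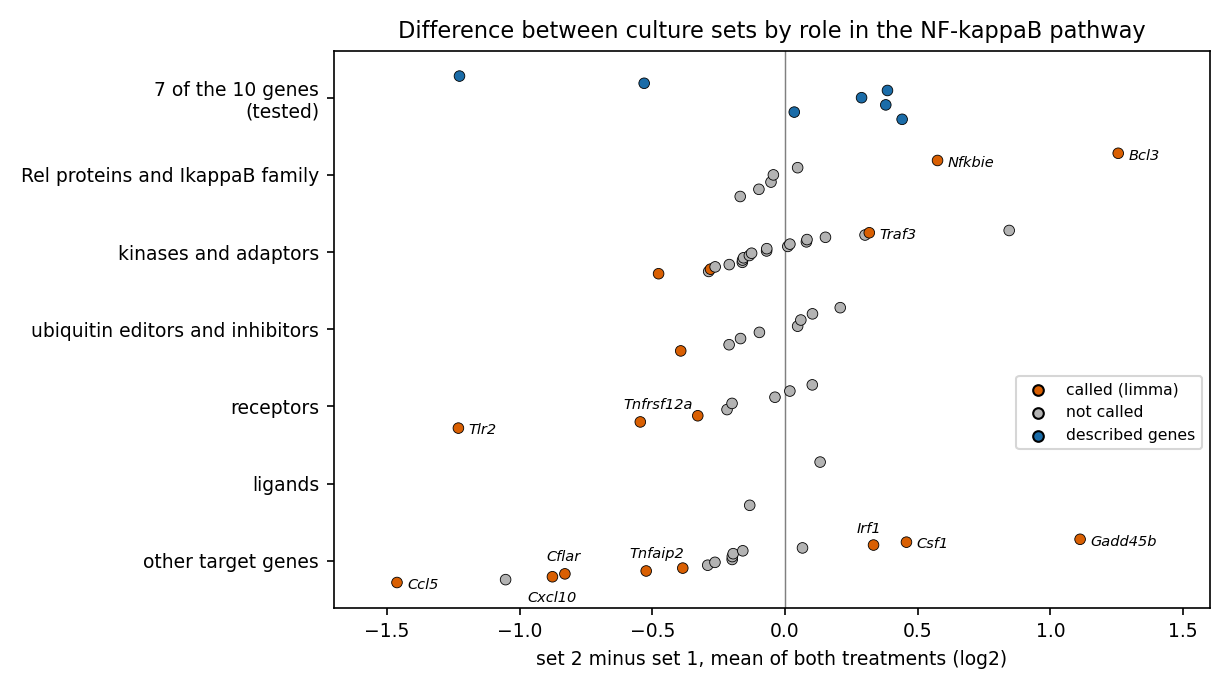
Set 2 minus set 1, mean of both treatments (log2), for the brightest tested probe of each gene, by role in the pathway. Orange points were called by limma over all probes, grey points were not, and blue points are the described genes, whose calls are not marked. Bcl3 and Gadd45b lie highest and Ccl5 and Tlr2 lowest among the called genes, and Zc3h12a is the described gene at -1.23.

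Il6, a cytokine whose transcript Zc3h12a degrades, was singled out after its values were seen, since it was not among the tested probes. The probe in row 286 gave -4.11 in control and -4.12 in Cdh1 of set 1, both well above background, and -8.27 and -7.84 in set 2, neither well above background. The probe in row 62 gave -5.04 and -5.61 in set 1 and -8.06 and -7.66 in set 2, with the same pattern. Set 1 was at least 3.25-fold and at least 1.41-fold above the bound for set 2. Il6 and Icam1 were thus both well above background in the cultures of set 1 alone, with and without Cdh1. Traf1, an adaptor and target (row 37) also picked after its values were seen, was likewise well above background in set 1 alone, at least 1.34-fold above the bound.

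Markers of other cells were set beside these differences. The summed level of the 5 fibroblast markers, on a linear scale where 1 is the 75th percentile, was 0.222 and 0.237 in set 1 and 0.187 and 0.17 in set 2. Col1a1, on all 4 arrays, was at -3.68 and -3.69 in set 1 and -4.72 and -5.09 in set 2, lower by 1.22 in the mean on the log2 scale. Pdgfra and Pdgfrb, also on all 4 arrays, had a set 2 minus set 1 of -0.41 and 0.04. The markers did not fall alike, and Col1a1 fell the furthest. Dcn and Lum were well above background on no array. The sum of the 7 leukocyte markers was 12.2 and 12.1 in set 1 and 10.5 and 12 in set 2. Itgam, at 3.44 and 3.43 in set 1 and 3.22 and 3.40 in set 2 on the log2 scale, made up most of it. Ptprc and Adgre1 were well above background on no array and Lyz2 on 1, so this sum rests largely on 1 gene. Of the 4 endothelial markers only Pecam1 was well above background on all 4 arrays and Cdh5, Kdr and Tek were on none, and of the 4 epithelial markers Cldn4 was on 1 array and the other 3 on none, so their sums are not compared. The melanocyte sum was 1550 and 1520 in set 1 and 1320 and 1320 in set 2. Dct, Mlana, Pmel and Tyrp1, the brightest, made up most of it. Tyr, the rate-limiting enzyme of pigment synthesis, was lower by 1.77 in set 2 on the log2 scale, the furthest of these markers. Set 2 minus set 1 was -0.12 for Dct, -0.15 for Tyrp1, -0.21 for Mlana, -0.39 for Mitf and -0.42 for Pmel. Sox10 went the other way, at 0.20. The part of these in the differences between the sets was not tested. In bulk RNA, fewer cells of a type and less RNA per cell cannot be told apart.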

How the data were processed

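Total RNA of 4 B16-F10 cultures was labelled with Cy3 and read on 1 array each. Images were quantified in Agilent Feature Extraction (12.0.3.1), as stated in the submitters' processing notes. In the deposited scanner files the authors give a processed intensity for every spot, background-subtracted and detrended within the array on a linear scale, per the file headers, and flags, an other value of 0 or 1, also deposited by the authors. The deposited table of the series held, for each array, that intensity times 1 factor (0.8735 to 0.9304, largest deviation 7.2e-10 on the log2 scale; column medians 30.25, 31.19, 30.45 and 32.47 for control and Cdh1 of set 1, then of set 2). Its scale is therefore linear and not centred, and the source of the factors is not given in the sources used here.

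Here the log2 of that intensity was taken relative to the 75th percentile of its array, outlier spots (115 to 143 per array) were left out, spots of a probe were averaged, and 0 spots were saturated. The 32571 probes that both arrays of 1 or both treatment groups had well above background were tested with limma 3.58.1 (R 4.3.3; lmFit, eBayes, Benjamini-Hochberg at 0.05), for Cdh1 against control and for set 2 against set 1, on all 4 arrays without a block. Symbols came from RefSeq accessions (GRCm38.p6 table, 33767 of 56605 probes matched); the array design names mm9. A gene stood for its brightest tested probe. The set number pairs the arrays, per the design text; deviations from the group mean of the arrays of a set correlated at 0.744 over 31155 probes. Scripts were tested on simulated data. Members and lists were chosen with earlier results of these data known. Wider list genes were named when called between the sets (at most 6 per direction by size; Myd88, Ripk1, Tnip1, Tlr4 and Lif, also called, and genes given as not passing were added after their values were seen), or, with Cdh1, as the 3 with the largest difference of 1 sign in both sets in each direction among genes that every array had well above background (Saa3, Ltb and Nfkbid, outside this rule, were added after their values were seen). Genes of like pattern were named for each member at least 1 apart (log2) between the sets in the mean and well above background on all 4 arrays, which was Zc3h12a. Alternatives changed the normalization, source, filter, outliers, prior, edge rows, block and arrays. Python 3.11.15, pandas 2.3.3 and matplotlib 3.10.9 were used.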

Additional observations from a re-analysis of the deposited data

How the results depend on the processing

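The count of 0 probes called between Cdh1 and control was 0 in each alternative, the replicate block and each array left out included (lowest limma adjusted p 0.267 to 1). The count of 4572 between the sets was 8499 with normexp and quantile normalization, 10714 with the trend and robust prior, 1597 with the replicate block and 0 without the filter on dim probes. With 1 array left out it was 0 to 0, which leaves 1 residual degree of freedom. The 17 pathway genes called between the sets became 11 with median centring, 29 with the trend and robust prior, 6 with the replicate block, 0 without the filter and 0 to 0 with 1 array left out. For the genes described, 0 of 80 values between the sets and 0 of 72 with Cdh1 changed sign under alternatives that keep all 4 arrays. Most of these values could not change. The filters, outlier spots, prior, edge rows, block and deposited table left the estimate as it was, and only another normalization moved it. The counts therefore say little about how firm the signs are. Sizes did move: with normexp and quantile normalization Cxcl1 went from -0.53 to -0.18 between the sets, and Zc3h12a from -1.23 to -0.62 between the sets and from 1.31 to 0.57 with Cdh1. The mean over a gene's tested probes called 18 pathway genes, 13 of the 17 and 5 others, and lost Csf1, Irf1 (which also turned, to -0.08), Ripk1 and Tnip1. With 1 array left out, 3 of 28 values between the sets (Tnfaip3 and Zc3h12a) and 12 of 28 with Cdh1 changed sign. The filter by set in place of by treatment group, chosen after seeing the data, called 5098 probes and 19 pathway genes. Signal over background limits Birc3, Ccl2, Icam1 and Tnfaip3.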

Other observations

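In the wider lists, no gene passed with Cdh1, and among genes that every array had well above background the mean differences of 1 sign in both sets that were furthest from 0 were higher for the adaptor Traf5 (1.25), the receptor Tlr3 (0.27) and the kinase Ikbke (0.19). They were lower for Tnfrsf12a (-0.18), Tnfaip2 (-0.12) and Nfkbie (-0.11), and limma without the block gave all 6 an adjusted p of 1. That fit does not use the pairing of the arrays by set and counts the distance between the sets as error. With the replicate block no probe was called either. Some tested genes well above background on 3 arrays also lay far from 0. The acute-phase gene Saa3 was higher by 0.34 in set 1 and 1.19 in set 2, or 0.76 in the mean, less than Traf5 but more than Tlr3. Ltb was lower by 0.14 and 1.16, and the nuclear IkappaB gene Nfkbid by 0.42 and 0.48, both further in the mean than Tnfrsf12a. None of the 3 passed (limma adjusted p 1). The Traf5 probe lies in row 371 and differed by 0.15 in set 1 and 2.35 in set 2, and its probe in row 92 by 0.12 and 0.00. The further Tlr3 probe, in row 21, gave -0.01 and -0.14, opposite to the one named. A further Ikbke probe, in row 366, gave -1.7 in set 1 and -1.7 in set 2, also opposite to the one named. It was well above background on 1 array only and was not tested. Tnfrsf12a was lower by nearly the same amount in both sets, -0.18 and -0.17, as was Nfkbie, -0.11 and -0.12.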
